A study of Mus musculus with 24 samples.

Results

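The kinesin motor genes of the mouse were followed through normal adrenal glands and neuroblastoma tumors by RNA-seq. A gene counted as a member when its symbol was Kif followed by a digit, which held for 39 of the 21833 protein-coding genes in the table. Of these, 12 were grouped as mitotic kinesins, 12 as axonal transport kinesins, 7 as cilium and Hedgehog kinesins and 8 as other kinesins. The other motors of the superfamily with another kind of symbol (Cenpe, Kifc1, Kifc2, Kifc3, Kifc5b and Stard9) were no members.

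The 24 libraries came from 4 groups of mice backcrossed to C57Bl6/N, and each group is described with what it carried. AG were adrenal glands of mice labelled CRE -, in which no recombinase was present (n = 3). AGM were tumor-free adrenal glands whose donors were labelled MYCN +/-, CRE + (n = 5). TI were neuroblastomas that arose with CRE + and the IGF2BP1 transgene alone, of which 1 was labelled +/- and 7 +/+ (n = 8). TIM were neuroblastomas labelled IMP1/MYCN, CRE +, which carried both transgenes (n = 8). IMP1 is another name of IGF2BP1, an RNA-binding protein. Both transgenes sat at Rosa26 behind a stop cassette that an iCRE driven by Dbh removed, Dbh being a gene of the sympatho-adrenal lineage. The labels give no age. Per the study, tumor mice were killed when their condition required it and the MYCN mice at a set and later age, so that age and group cannot be told apart. Per the study, most IGF2BP1 tumors lay in the lower abdomen and only 1 came from an adrenal gland. Tumors with both transgenes were found in adrenal glands, in the abdomen or along the spine. The glands are thus not the site of origin of most TI tumors, and site was not separated here. An adrenal gland is mostly cortex, whereas cortex markers were low in the tumors. The summed level of 8 such markers was 646 to 667 FPKM in AG and 4293 to 5373 in AGM, against 0.0173 to 10.1 in TI and 0.281 to 9.28 in TIM. Markers of the sympatho-adrenal lineage, 10 in number, summed to 142 to 205 FPKM in AG and 1475 to 2551 in AGM, against 207 to 1822 in TI and 216 to 4748 in TIM. Since AG and AGM were sequenced in different runs, their sums are not read as differences in tissue content. In bulk tissue, fewer cells of a type and less RNA per cell cannot be told apart.

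Kinesins are motor proteins that turn the energy of ATP into steps along microtubules. Axonal transport kinesins carry vesicles, mitochondria and cytoskeletal cargo from the cell body of a neuron towards the axon tip, and neurons have kinesin-1 and kinesin-3 genes of their own beside those that most cells use. Mitotic kinesins build the spindle, move chromosomes or cut the daughter cells apart, and their genes are mainly transcribed in the late phases of the cell cycle. A neuroblastoma arises from the sympathetic lineage, so that both kinds of kinesin may be looked for in it.

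Levels are given as FPKM, fragments per kilobase of gene length relative to the scaled size of the library, a unit in which genes can be compared. Group differences are on the log2(FPKM + 1) scale, where the change of low genes comes out too small, and the ratio of mean FPKM is given beside them. limma was run on the 10171 genes that reached 1 FPKM in 3 or more libraries, and a gene was called at a false discovery rate (FDR) below 0.05 over those genes. Of the 39 kinesins, 22 passed this filter. The 17 below it were 6 mitotic, 1 axonal transport, 6 cilium and Hedgehog and 4 other kinesins. Read numbers in this report were recovered from FPKM and gene length. They are counts after the authors' batch correction and not reads as sequenced. In these data 1 FPKM stood for 74.7 to 134 reads per 1000 bases, so that a value below 1 FPKM was not always a low read number. Kif15, a spindle kinesin below the filter, had up to 957 reads in a library. Others had few reads, and Kif2b, Kif28, Kif12, Kif6 and Kif19b had at most 2, 14, 18, 27 and 64 reads in any library. A second fit on the same scale therefore took the 16221 genes that reached 10 reads in 3 or more libraries (the read filter), and was chosen after seeing the data.

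The libraries differed in ways the groups do not separate. Outside 126 genes above 1000 FPKM, none of which was a kinesin, the libraries held 12334076 to 23683176 recovered reads. Being batch-corrected counts, such totals are no measure of sequencing depth. With those genes the totals were at most 17893013 in AG and 21353172 in TI, and reached 888626365 in TIM and 1170004708 in AGM. When FPKM were recomputed on the totals outside those genes, the median difference of all genes moved to -0.27 in AGM vs AG and to 0.22 in TIM vs AGM, and by limma-voom on reads to -0.50 and 0.35, with -0.23 in TIM vs AG and -0.17 in TIM vs TI. The split of calls over all genes moved with it, from 1488 higher and 1420 lower to 893 and 3589 (608 and 3627 by limma-voom) in AGM vs AG, from 3241 and 3398 to 4284 and 2588 (3915 and 2553) in TIM vs AGM, and from 1017 and 1315 to 752 and 2029 (529 and 1806) in TIM vs TI. Per the labels, AG was sequenced in run 1 and AGM in run 2, TI in runs 1 (6 samples), 2 (1) and 3 (1), and TIM in runs 2 (3) and 3 (5). Run and group therefore cannot be told apart where AGM or TIM is set against AG. Run was also unbalanced between the tumor kinds, with 6 TI samples and no TIM sample in run 1. Run 3 held 5 TIM samples and 1 TI sample but no AGM sample. The part of run in differences of TIM from TI or from AGM was not tested. The columns could not be tied to single samples, so libraries are numbered in column order. Nothing in the labels says that the tumors came from separate mice. Per the study, the IGF2BP1 tumors came from different mice, whereas mice with both transgenes could carry several tumors each. For TIM the samples may therefore share a mouse, and p-values then measure the spread between these samples. The mouse genes Mycn and Igf2bp1 were no check of the transgenes. Mycn had 0.559 to 1.19 FPKM over the glands, with 1.57 to 15.6 in TI and 1.20 to 4.38 in TIM, and Igf2bp1 reached at most 0.0796 FPKM in any library.

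The mitotic kinesins were far higher in TI tumors than in adrenal glands. In TI the 8 libraries lay above the 3 AG libraries without overlap for 10 of the 12 members, the others being Kif20b and Kif2b. Over the 16221 genes of the read filter, TI lay wholly above AG for 20.4% and wholly below for 25.9%. In AG 11 of the 12, all but Kif2b, had 10 or more reads in each library, so that they passed the read filter without the tumors. In the fit with that filter, the 11 were called higher in TI vs AG, with a median difference of 1.26 on the log2(FPKM + 1) scale, beside 19.9% of all genes called higher and 25.2% called lower and a median of -0.0018 for all genes. At the filter of 1 FPKM 6 members were tested. None of the 6 reached 1 FPKM in a gland and they passed through the tumors alone, so that their calls against glands (6 of 6 in TI vs AG) are no support beyond the levels. Among all genes of this filter, 24.6% were called higher and 27.7% lower in TI vs AG. By limma-voom on the reads, 3 of the 6 were called, and Kif11 (FDR 0.102), Kif2c (FDR 0.103) and Kif20a (FDR 0.0506) were not. With the read filter limma-voom called 7 of the 11, without Kif11, Kif18a, Kif20b and Kif23.

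**Figure D1:**
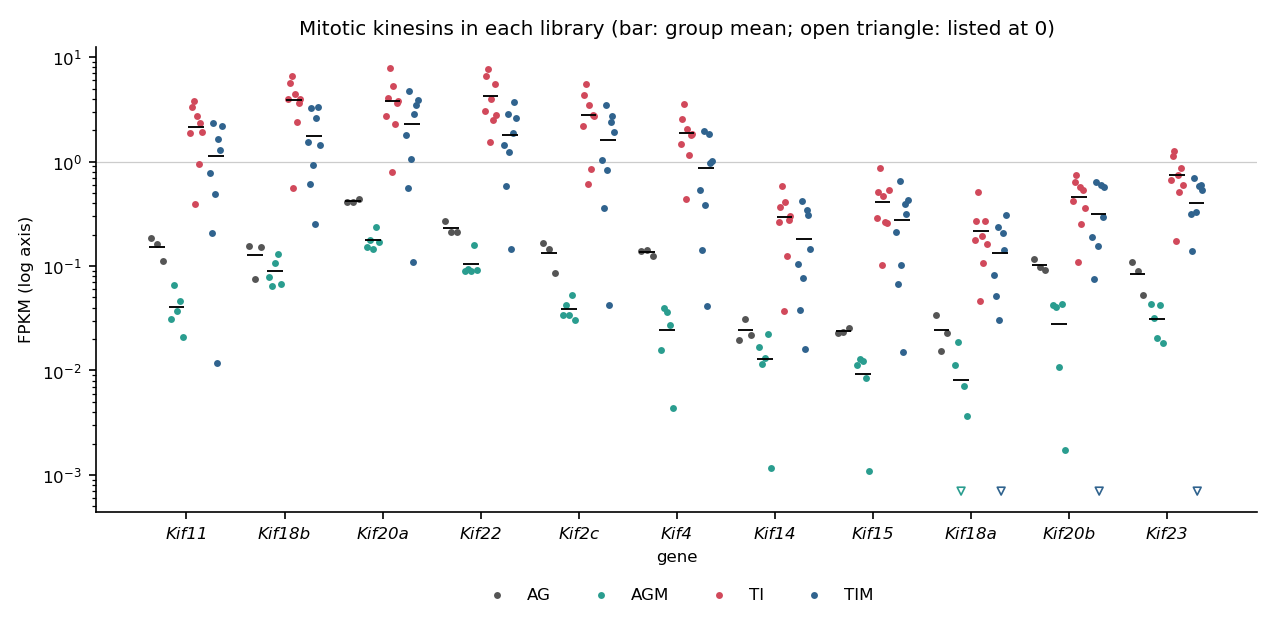
Level of 11 mitotic kinesins in FPKM on a log axis, with 1 point for each library, a black bar for each group mean and an open triangle for a library listed at 0. The 8 TI libraries lie above the 3 AG libraries for 10 of these genes, with Kif20b as the exception, against 20.4% of all genes of the read filter, and the TIM libraries overlap with AG for each gene but Kif18b.

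On the log2(FPKM + 1) scale, Kif18b and Kif22 had the largest differences of the class in TI vs AG. Kif18b, a motor that shortens microtubule ends in mitosis, had 0.157, 0.0745 and 0.153 FPKM in the AG libraries and 0.0794, 0.0640, 0.108, 0.129 and 0.0669 in the AGM libraries. In TI its lowest, median and highest levels were 0.553, 3.98 and 6.54 FPKM, and in TIM 0.255, 1.49 and 3.36 FPKM. The tumors of both kinds thus lay above every gland. The difference was 1.99 (SE 0.37, FDR 9.19e-05) in TI vs AG, a 30.4-fold ratio of mean FPKM, and 1.16 (SE 0.37, FDR 0.0116) in TIM vs AG, a 13.7-fold ratio.

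Kif22, a chromokinesin that pushes chromosome arms to the spindle equator, had 0.272, 0.211 and 0.213 FPKM in AG. Its lowest, median and highest levels were 1.52, 3.52 and 7.64 FPKM in TI and 0.146, 1.66 and 3.68 in TIM, so that the lowest TIM library was below AG. The difference was 1.97 (SE 0.35, FDR 5.36e-05) in TI vs AG, an 18.1-fold ratio, and 1.06 (SE 0.35, FDR 0.0142) in TIM vs AG, a 7.80-fold ratio. Kif4, the other chromokinesin of the class, rose by 1.26 (SE 0.29, FDR 0.000779) in TI, from 0.135 ± 0.00928 FPKM (SD, n = 3) to 1.86 ± 0.926 (SD, n = 8).

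The genes of spindle assembly and of cell division moved the same way in TI. Kif11 (Eg5), which drives the spindle poles apart, had 0.185, 0.164 and 0.111 FPKM in AG against 0.393 to 3.82 in TI, with a difference of 1.36 (SE 0.33, FDR 0.00158). Kif2c, which takes microtubules apart at the centromere, rose by 1.61 (SE 0.39, FDR 0.00134), a 21.1-fold ratio. Kif20a, a motor of the central spindle at cytokinesis, rose by 1.63 (SE 0.41, FDR 0.00206), from 0.422 ± 0.0186 FPKM (SD, n = 3) to 3.82 ± 2.11 (SD, n = 8).

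The mitotic kinesins below the filter of 1 FPKM, apart from Kif2b with its 0 to 2 reads, also had higher means in TI than in AG. Kif23, the motor of the centralspindlin complex, had 0.0525 to 0.110 FPKM in AG and 0.172 to 1.25 in TI, an 8.86-fold ratio of means (FDR 0.00123 in the fit with the read filter). Kif15, a second spindle motor that can act beside Kif11, had 27 to 30 reads in AG libraries and 123 to 957 in TI libraries, a 17.2-fold ratio in FPKM (FDR 0.00699). Kif14 and Kif20b, which act at cytokinesis, had ratios of 12.2 (FDR 0.0108) and 4.48 (FDR 0.0227), and Kif18a, which aligns chromosomes, had a ratio of 8.98 (FDR 0.0187).

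In TIM tumors the same class was higher than in AG for part of its members. In the fit with the read filter, 3 of 11 (Kif18b, Kif22 and Kif2c) were called higher in TIM vs AG, beside 17.9% of all genes called higher. The TIM libraries lay wholly above AG for 1 of the 12 members (Kif18b), against 14.9% of all genes of that filter. Of the 6 at 1 FPKM, 4 were called higher (Kif18b, Kif22, Kif2c and Kif20a), beside 22.5% of all genes called higher and 28.5% lower. Kif11 and Kif4 differed by 0.76 (FDR 0.0621) and 0.62 (FDR 0.0765). By limma-voom none of the 6 was called and none had an unadjusted p below 0.05, with the lowest FDR at 0.137. With the read filter limma-voom called 0 of 11, of which 2 had an unadjusted p below 0.05. The call of Kif20a (FDR 0.0431) was lost without any single AG library and without TIM library 1, 3, 6, 7 or 8 (FDR 0.0522 to 0.104), and that of Kif2c (FDR 0.0286) without any single AG library (FDR 0.0694 to 0.0843). The count fell to 2 without any single AG library.

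Single tumors stood apart in this class. TIM library 5 had 0.637 FPKM summed over the mitotic kinesins, less than each AG library (1.35 to 1.64), whereas the other TIM libraries had 2.84 to 21.3. Among the TI tumors, library 4 was lowest with 4.79 and the other 7 libraries had 11.4 to 38.9 FPKM. Mki67, the proliferation marker, had 0.0328 FPKM in TIM library 5 and 1.46 in TI library 4, which were the lowest values of their groups. Markers of other cell types stood apart in the same libraries. The 5 endothelial markers summed to 19.8 FPKM in TI library 4 and to 2.01 to 5.76 in the other TI libraries. The 6 Schwann cell markers summed to 41.7 FPKM in TIM library 5 and to 0.360 to 20.7 in the other TIM libraries, and its 5 adipocyte markers (36.1 FPKM) and 8 cortex markers (9.28 FPKM) were the highest of its group. Their part in the mitotic values was not tested. Without TIM library 5, Kif11 and Kif4 were called higher in TIM vs AG as well (FDR 0.0201 and 0.0306), as they were without TIM library 2 (FDR 0.0349 and 0.0428), which makes 6 of 6.

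Between the tumor kinds, part of the class was lower in TIM. Of the 6 mitotic kinesins, 3 were called lower in TIM vs TI, beside 12.9% of all genes called lower and 10% called higher. With the read filter the count was 3 of 11, beside 11.3% of all genes called lower. Kif22 fell by 0.91 on the log2(FPKM + 1) scale (SE 0.26, FDR 0.0145), Kif18b fell by 0.83 (SE 0.27, FDR 0.0312) and Kif4 fell by 0.64 (SE 0.21, FDR 0.0317), and the ranges of the groups overlapped for each. The calls of Kif18b and Kif4 did not survive the loss of TI library 2, 3 or 5 or TIM library 2, 4 or 5 (FDR 0.0561 to 0.0718), and Kif18b was lost without TI library 1 (FDR 0.0512), as was Kif4 without TI library 7 (FDR 0.0504) or TIM library 1 (FDR 0.0569). In those fits without TI library 2, 3 or 5 or TIM library 2, 4 or 5 the count was 1. Without TI library 4, 5 of the 6 were called lower, with Kif11 (FDR 0.0190) and Kif20a (FDR 0.0446) added, and Kif11 was also called without TI library 6 or TIM library 3 or 8 (FDR 0.0371 to 0.0459). In a fit of these 2 groups alone none of the 6 was called by limma, with the lowest FDR at 0.0614 and 3 with an unadjusted p below 0.05, and 7.28% of all genes were called lower.

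Tumor-free glands with the MYCN transgene had low mitotic kinesin levels. Of the 6 tested, 0 were called by limma in AGM vs AG and 0 had an unadjusted p below 0.05, beside 14.6% of all genes called higher and 14% lower. The summed level was 1.46 ± 0.154 FPKM (SD, n = 3) in AG and 0.564 ± 0.136 (SD, n = 5) in AGM, and for 8 of the 12 genes the AGM libraries lay below the AG libraries without overlap, against 28.4% of all genes of the read filter. In a fit of these 2 groups alone, in which the tumors did not enter the spread, 5 of the 6 were called lower (Kif4, Kif20a, Kif11, Kif22 and Kif2c, FDR 0.000109 to 0.00205), beside 32.9% of all genes called lower and 29.2% higher in that fit, whereas limma-voom on all groups called 0. The median difference of the 6 was -0.15 in the fit of all groups and -0.18 with the recomputed scaling, under which the median of all genes was itself -0.27. Against AGM, 11 of 11 were higher in TIM in the fit with the read filter, beside 25.9% of all genes called higher, and 10 of the 11 had 10 or more reads in 3 or more AGM libraries. The 6 at 1 FPKM, which passed through the tumors, had FDR of 0.00105 to 0.00835, beside 31.9% of all genes called higher and 33.4% called lower, and limma-voom called 2 of them (Kif18b and Kif22).

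Because the mitotic members moved together, their promoters were searched for the cell cycle genes homology region (CHR), a short element near the start of many genes of late cell cycle phases. The letters TTTGAA and TTCGAA were searched on both strands, where TTTGAA reads TTCAAA on the other strand and TTCGAA reads the same. CCAAT and CACGTG were searched as well. Promoters were those of RefSeq on GRCm38.p6, from 250 bases before to 50 after the start, and were matched by symbol for 11 of the 12 mitotic and 8 of the 12 axonal transport kinesins. The mitotic kinesin without an entry was Kif20a, and the transport kinesins without one were Kif5a, Kif5b, Kif13b and Kif21b. A match lay within 30 bases of the start in 7 of the 11 mitotic kinesins and in 0 of the 8 axonal transport kinesins, against 2.54% of 16389 genes. The distance of 30 bases was chosen after seeing the positions. Over the whole length, 9 of the 11 and 0 of the 8 had a match, against 17.5% of the genes. CCAAT was found in 7 of the 11 and 3 of the 8, against 39% of the genes, and CACGTG in none of the 19, against 8.07%. A match is a description of the letters and not a bound site. The windows below run from 60 bases before to 40 after the start, with the matched letters in capitals, for 5 mitotic kinesins with a match and for Kif1a and Kif5c, the transport kinesins with large differences, which have none.
Kif11, chr19:37376322-37376421, plus strand: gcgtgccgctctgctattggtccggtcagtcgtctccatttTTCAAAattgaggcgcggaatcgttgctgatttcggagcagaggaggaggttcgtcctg
Kif18b, chr11:102925085-102925184, minus strand: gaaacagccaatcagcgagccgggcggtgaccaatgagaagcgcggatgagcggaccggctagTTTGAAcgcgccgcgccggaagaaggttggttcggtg
Kif22, chr7:127042381-127042480, minus strand: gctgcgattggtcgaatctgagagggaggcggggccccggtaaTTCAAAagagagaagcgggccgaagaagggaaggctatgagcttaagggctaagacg
Kif4, chrX:100626005-100626104, plus strand: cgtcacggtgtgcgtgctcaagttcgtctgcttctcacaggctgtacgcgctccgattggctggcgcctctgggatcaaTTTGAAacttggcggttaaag
Kif23, chr9:61946760-61946859, minus strand: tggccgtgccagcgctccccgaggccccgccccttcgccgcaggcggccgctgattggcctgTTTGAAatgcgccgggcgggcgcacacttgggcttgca
Kif1a, chr1:93101835-93101934, minus strand: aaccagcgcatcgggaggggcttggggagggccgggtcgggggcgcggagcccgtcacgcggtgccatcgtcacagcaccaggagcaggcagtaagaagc
Kif5c, chr2:49619226-49619325, plus strand: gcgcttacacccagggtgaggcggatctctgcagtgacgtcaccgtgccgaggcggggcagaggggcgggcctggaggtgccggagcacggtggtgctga

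Among the axonal transport kinesins, some were higher and some lower in the tumors. In TI vs AG, 6 of the 11 tested were called higher and 3 lower, beside 24.6% and 27.7% of all genes, and in TIM vs AG 4 were higher and 4 lower, beside 22.5% and 28.5%. The counts called lower were near the shares of all genes and are not read as a trait of the class. Kif5a, Kif5c and Kif21a were below 1 FPKM in every gland and passed the filter through the tumors. The 12 members each had 10 or more reads in the 3 AG libraries, and with the read filter 6 were higher and 4 lower in TI vs AG (median difference 0.30) and 4 and 4 in TIM vs AG (median 0.20). With that filter 19.9% of all genes were called higher and 25.2% lower in TI vs AG, and 17.9% and 26.3% in TIM vs AG. In kinesin-1 and kinesin-3 the motors known from neurons (Kif5a, Kif5c and Kif1a) were called higher in both kinds of tumor, and the widely used Kif5b and Kif1c were called lower.

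**Figure D2:**
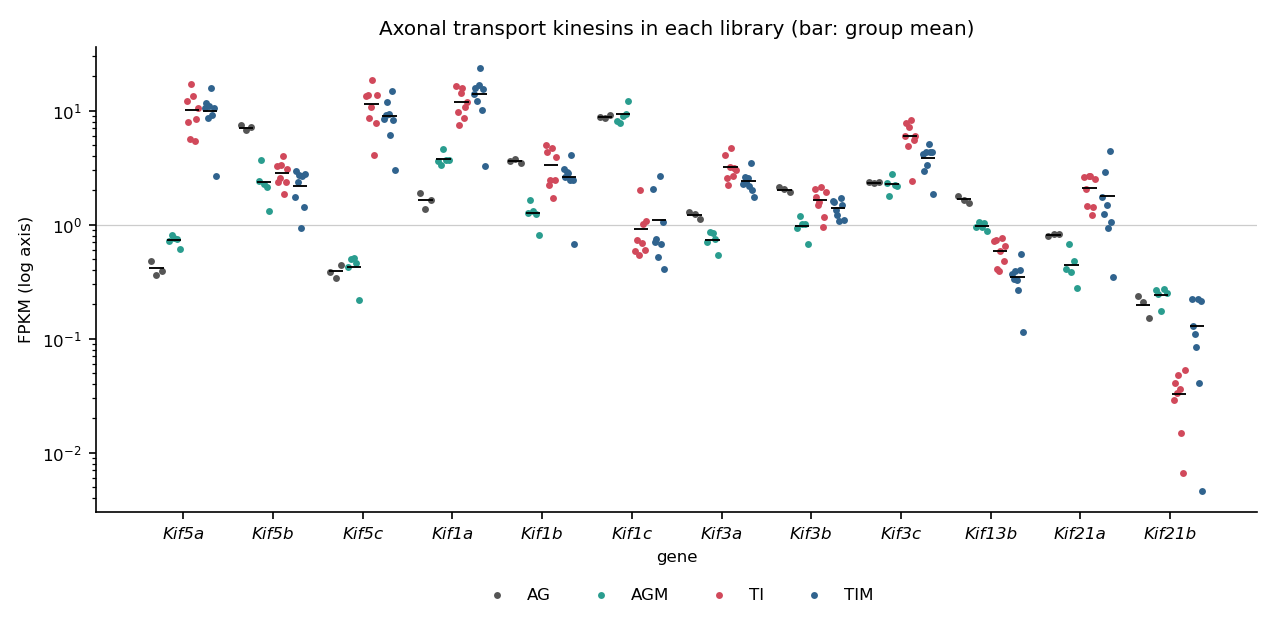
Level of the 12 axonal transport kinesins in FPKM on a log axis, with 1 point for each library and a black bar for each group mean. Kif5a, Kif5c and Kif1a lie above the AG glands in the tumors, and Kif5b, Kif1c and Kif13b below the AG glands.

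Kinesin-1 moves most fast cargo through the heavy chains Kif5a, Kif5b and Kif5c, of which Kif5b is the widely used one and the other two are known from neurons. Kif5a had 0.481, 0.366 and 0.396 FPKM in AG and 0.725, 0.818, 0.761, 0.749 and 0.613 in AGM. Its lowest, median and highest levels were 5.48, 9.60 and 17.1 FPKM in TI and 2.69, 10.6 and 15.8 in TIM. No tumor overlapped with a gland. The difference was 2.90 (SE 0.32, FDR 8.00e-08) in TI vs AG and 2.86 (SE 0.32, FDR 9.95e-08) in TIM vs AG, ratios of 24.5 and 24.2.

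Kif5c had 0.388, 0.343 and 0.442 FPKM in AG and 0.428, 0.499, 0.513, 0.464 and 0.219 in AGM. In TI its levels ran from 4.12 over a median of 12.2 to 18.7 FPKM and in TIM from 3.02 over 8.78 to 15.0. It too was higher in each tumor than in any gland. The difference was 3.05 (SE 0.33, FDR 5.30e-08) in TI vs AG, the largest of the 22 kinesins on the log2(FPKM + 1) scale but not by ratio (29.1), and 2.74 (SE 0.33, FDR 2.90e-07) in TIM vs AG.

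Kif5b went the other way. It had 7.43, 6.82 and 7.13 FPKM in AG and 2.43, 3.68, 2.26, 2.13 and 1.32 in AGM, and 1.85 to 4 in TI and 0.943 to 2.95 in TIM. AG thus stood above the 3 other groups, glands of MYCN mice included. Kif5b fell by 1.09 (SE 0.21, FDR 0.000123) in TI, by 1.38 (SE 0.21, FDR 7.12e-06) in TIM and by 1.31 (SE 0.22, FDR 0.000123) in AGM, each against AG.

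As shares of the summed FPKM of the 3 heavy chains, Kif5b made up 89.5% to 90.6% in AG and 61.3% to 73.7% in AGM, with 9.86% to 16.1% in TI and 4.13% to 32.8% in TIM. Library 8 had the highest of the TIM shares, and the other 7 libraries had 4.13% to 12.4%. The summed level of the 3 was 7.93 ± 0.386 FPKM (SD, n = 3) in AG and 3.52 ± 1.01 (SD, n = 5) in AGM, with 24.4 ± 8.24 (SD, n = 8) in TI and 21.1 ± 5.49 (SD, n = 8) in TIM.

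Kinesin-3 showed the same kind of exchange. Kif1a, which brings synaptic and dense-core vesicles down the axon, had 1.88, 1.37 and 1.66 FPKM in AG and 3.60, 3.32, 4.59, 3.70 and 3.69 in AGM. Its lowest, median and highest levels were 7.55, 11.4 and 16.5 FPKM in TI and 3.27, 14.8 and 23.6 in TIM. The tumors lay above AG, and the lowest TIM library (library 8) lay just below the AGM range. Kif1a rose by 2.26 (SE 0.33, FDR 4.48e-06) in TI and by 2.37 (SE 0.33, FDR 2.34e-06) in TIM. In AGM vs AG the difference was 0.86 (SE 0.35, FDR 0.0730) with no overlap between the groups, and it was called in the fit of these 2 groups alone (FDR 0.000243).

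Kif1c, a widely used member with roles at the Golgi and in cell migration, had 8.88, 8.55 and 9.17 FPKM in AG and 8.16, 7.89, 9.05, 9.43 and 12.1 in AGM. In TI it ran from 0.544 over a median of 0.713 to 2.04 FPKM and in TIM from 0.406 over 0.731 to 2.67. It was the highest kinesin of both kinds of gland, and no tumor reached a gland. Kif1c fell by 2.40 (SE 0.24, FDR 1.45e-08) in TI, a 9.74-fold lower mean, and by 2.31 (SE 0.24, FDR 2.78e-08) in TIM, an 8.02-fold lower mean. In AGM vs AG its difference was 0.05 (SE 0.26, FDR 0.912), with a 95% interval from -0.48 to 0.58. Cortex markers were low in the same tumors, and their part in the fall of Kif1c was not tested.

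Kif1b, which transports mitochondria and synaptic vesicle precursors and lies in a region often lost in human neuroblastoma, was not called between tumors and AG. It had 3.62 ± 0.143 FPKM (SD, n = 3) in AG, against 3.36 ± 1.27 (SD, n = 8) in TI and 2.65 ± 0.948 (SD, n = 8) in TIM. The 95% intervals of the difference ran from -0.66 to 0.38 in TI vs AG and from -0.92 to 0.12 in TIM vs AG. In AGM it fell by 1.04 (SE 0.27, FDR 0.00654) to 1.27 ± 0.301 FPKM (SD, n = 5). Of the summed FPKM of Kif1a, Kif1b and Kif1c, Kif1a made up 9.99% to 13.1% in AG and 65.6% to 83.3% over the tumors, while Kif1c made up 61.8% to 64.1% in AG and 2.59% to 10.8% in the tumors. The sum itself was 13.7 to 14.4 FPKM in AG, within the range of TI (10.3 to 22.0) and of TIM (4.36 to 28.8).

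Kif13b, a kinesin-3 that carries signalling cargo, had 1.57 to 1.79 FPKM in AG and 0.882 to 1.05 in AGM, with 0.394 to 0.761 in TI and 0.114 to 0.558 in TIM. It was called lower in AGM (by 0.43, FDR 0.00180), in TI (by 0.75, FDR 2.66e-07), in TIM (by 0.99, FDR 3.05e-09) and in TIM vs TI (by 0.24, FDR 0.0116).

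In kinesin-2, a motor with Kif3a as the common chain and Kif3b or Kif3c as its partner, the partners parted. Kif3a had 1.12 to 1.28 FPKM in AG, against 2.22 to 4.71 in TI and 1.76 to 3.49 in TIM, and rose by 0.90 (SE 0.14, FDR 1.49e-05) and 0.61 (SE 0.14, FDR 0.00112). In TIM vs TI it differed by -0.29 (FDR 0.0504), and was called lower without TI library 2, 3 or 6 or TIM library 6 (FDR 0.0141 to 0.0458). Kif3c, the partner known from neurons, rose by 1.01 (SE 0.23, FDR 0.000706) in TI, from 2.34 ± 0.0247 FPKM (SD, n = 3) to 6.01 ± 1.86 (SD, n = 8), and differed by 0.49 (FDR 0.0758, and 0.0204 without TIM library 8) in TIM. It was called lower in TIM vs TI (by 0.52, FDR 0.0293), a call lost without TI library 2 or 5 or TIM library 2, 4 or 8 (FDR 0.0505 to 0.0642). Kif3b, the widely used partner, was called lower in TIM vs AG (by 0.35, FDR 0.0236) and AGM vs AG (by 0.63, FDR 0.00131), and had a difference of -0.22 (FDR 0.15) in TI. The TIM call was lost without AG library 1 or 2 (FDR 0.0836 and 0.0708). Per library, the ratio of Kif3b to Kif3a in FPKM was 1.65 to 1.72 in AG and 1.22 to 1.37 in AGM, with 0.360 to 0.685 in TI and 0.467 to 0.751 in TIM.

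Kif21a and Kif21b, related motors that slow microtubule growth, differed from each other. Kif21a had 0.790 to 0.832 FPKM in AG and 1.22 to 2.70 in TI, a rise of 0.74 (FDR 0.0259) that was lost without any single AG library (FDR 0.0679 to 0.0733), and it differed by 0.49 in TIM (FDR 0.139, and 0.0360 without TIM library 8). Kif21b was below the filter with 0.153 to 0.235 FPKM in AG, against 0.00659 to 0.0530 in TI and 0.00461 to 0.225 in TIM. In the fit with the read filter it was lower in TI vs AG (FDR 0.000770, a 6.07-fold lower mean) and higher in TIM vs TI (FDR 0.0168), a call that limma-voom with the read filter did not give (FDR 0.0889).

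Between the tumor kinds few transport kinesins were called. In TIM vs TI, 2 of the 11 were called lower (Kif3c and Kif13b) and 0 higher, beside 12.9% and 10% of all genes, and the count of 2 was 1 without TI library 5 or without TIM library 2, 4 or 8. The 95% interval of the difference was -0.52 to 0.46 for Kif5a and -0.39 to 0.61 for Kif1a. In AGM vs AG, 4 were called lower (Kif5b, Kif3b, Kif13b and Kif1b) and 0 higher by limma, beside 14% and 14.6% of all genes. A higher level at an unadjusted p below 0.05 was found for 1. With the recomputed scaling the 4 stayed lower by 0.68 to 1.64, but the median of all genes was itself -0.27 there. In that setting 34.9% of all genes were called lower, so that staying lower is no separate check. The fit of these 2 groups alone called 2 higher and 6 lower, beside 29.2% and 32.9%. In TIM vs AGM, 8 were higher and 2 lower, beside 31.9% and 33.4%, with Kif5c (2.71, FDR 1.56e-08) and Kif5a (2.57, FDR 2.40e-08) at the top and Kif1c (-2.36, FDR 7.05e-10) at the bottom. The call of Kif3b in TIM vs AGM was lost without AGM library 5 (FDR 0.0899), and that of Kif3c without AGM library 2 (FDR 0.0520).

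**Figure D3:**
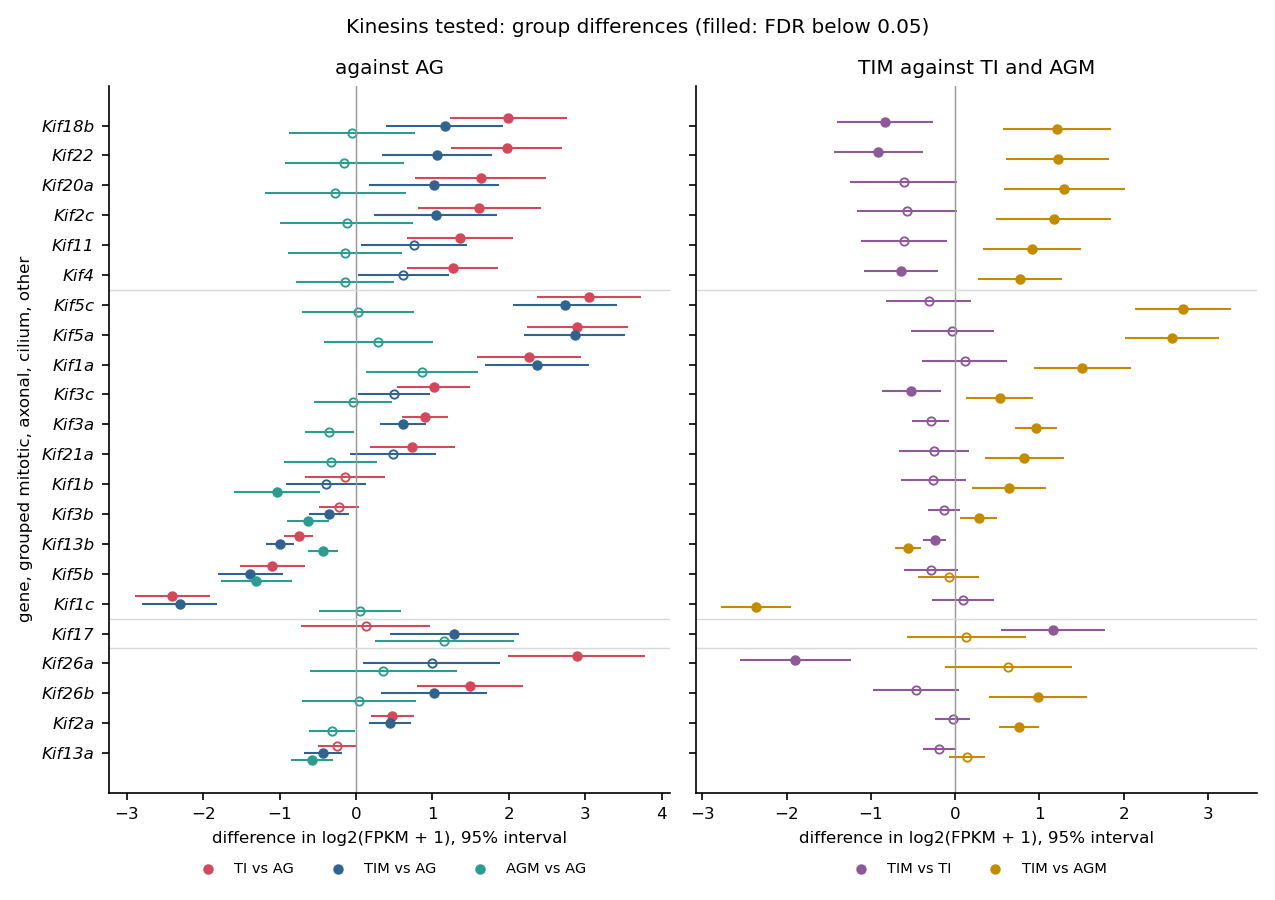
Difference between groups in log2(FPKM + 1) for the 22 kinesins tested, with the 95% interval as a line and a filled point where the FDR was below 0.05. The left panel sets TI, TIM and AGM against AG and the right panel TIM against TI and AGM, and on this scale Kif5c, Kif5a and Kif26a have the largest rises and Kif1c the largest fall of TI vs AG.

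Among the other kinesins, Kif26a had the highest mean of any kinesin in TI (12.7 FPKM), an order that rested on library 5. Without it the mean of Kif26a was 10.6 FPKM, below that of Kif1a (11.4). Kif26a and Kif26b are motors without ATPase activity that bind microtubules and act in signalling, Kif26a in enteric neuron development. Kif26a had 0.633, 0.601 and 0.842 FPKM in AG and 1.34, 0.960, 1.33, 1.05 and 1.17 in AGM. Its lowest, median and highest levels were 3.98, 11.8 and 27.7 FPKM in TI and 0.567, 1.94 and 7.38 in TIM. TI lay above every gland, and TIM overlapped with both glands. It rose by 2.89 (SE 0.43, FDR 6.51e-06) in TI vs AG and was lower in TIM vs TI by 1.90 (SE 0.32, FDR 0.000334), a 4.23-fold lower mean. In TIM vs AG it differed by 0.99 (FDR 0.0597), and it was called without TIM library 1, 2 or 5 (FDR 0.0238 to 0.0492).

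Kif26b had 0.0175 to 0.0295 FPKM in AG and 0.0398 to 0.0652 in AGM, with 0.248 to 5.16 in TI and 0.366 to 2.31 in TIM. It rose by 1.49 (SE 0.33, FDR 0.000686) and by 1.02 (SE 0.33, FDR 0.0135) against AG, 93.2-fold and 49.8-fold in mean FPKM, and in TIM vs TI it was called lower only without TI library 6 (FDR 0.0340). Kif2a, a depolymerase that prunes axon branches, rose by 0.47 (FDR 0.00515) in TI and by 0.44 (FDR 0.00841) in TIM, where limma-voom gave an FDR of 0.0643. Kif26b and Kif2a were below 1 FPKM in every gland and passed the filter through the tumors. Their calls against AG are therefore no support beyond the levels, although both had 10 or more reads in each AG library. Of the endosomal motors, Kif13a was lower in TIM vs AG (by 0.44, FDR 0.00458) and AGM vs AG (by 0.58, FDR 0.00208), with a difference of -0.24 (FDR 0.0975) in TI vs AG. In TIM vs AGM it was called higher only without TIM library 8 (FDR 0.0263), in which its level was lowest. The other, Kif16b, was below the filter and had 0.675 to 0.742 FPKM in AG and 0.240 to 0.436 in AGM, with 0.180 to 0.290 in TI and 0.0824 to 0.296 in TIM (fit with the read filter, FDR 1.24e-05 in AGM, 2.32e-08 in TI and 1.92e-09 in TIM).

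Kif17, which acts in dendrites and cilia, was the only one of 7 cilium and Hedgehog kinesins above the filter. It had 0.0366, 0.0352 and 0.0391 FPKM in AG and 1.22, 1.23, 1.58, 1.23 and 1.31 in AGM, and 0.0262 to 0.287 in TI. The 8 TIM libraries had 1.87, 4.77, 0.265, 4.66, 4.87, 0.308, 0.610 and 0.152 FPKM, so that 4 of them exceeded every gland and the other 4 did not reach the AGM range. Kif17 rose by 1.29 (SE 0.41, FDR 0.0109) in TIM vs AG and by 1.16 (SE 0.30, FDR 0.00844) in TIM vs TI, and differed by 1.16 (SE 0.44, FDR 0.0512) in AGM vs AG. It passed the filter of 1 FPKM through AGM and TIM libraries alone. Its calls against AG and TI are therefore no support beyond the levels. For TIM vs AG, the fit of these 2 groups alone gave an FDR of 0.0922 and limma-voom one of 0.138. Of the cilium kinesins below the filter, Kif7, a regulator of Hedgehog signalling, was higher in AGM vs AG in the fit with the read filter (4.08-fold, FDR 0.00169), as was Kif9 (2.97-fold, FDR 0.000940), beside 12.6% of all genes called higher there. By limma-voom with the read filter their FDR were 0.141 and 0.306. Kif24, which holds cilia back, was called higher in TI vs AG in that fit (FDR 0.0478), with overlapping ranges, and was not called with a pseudocount of 0.1 (FDR 0.0734) or by limma-voom (FDR 0.279), each with the read filter. Kif27 and Kif19a, of motile cilia, had at most 130 and 271 reads in any library.

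The classes were also weighed against each other within a library, as shares of the FPKM summed over the kinesins. Axonal transport kinesins held 84.9% to 85.2% in AG and 80.6% to 83.8% in AGM, with 40.9% to 83.4% in TI and 48.0% to 86.3% in TIM. This share does not follow the neuronal motors. In AG the highest members of the class were the widely used Kif1c and Kif5b, with means of 8.87 and 7.13 FPKM. The sum of Kif1a, Kif5a and Kif5c had a mean of 2.44 FPKM in AG, against 33.5 in TI and 32.9 in TIM. Mitotic kinesins held 3.78% to 4.45% in AG and 1.46% to 2.70% in AGM, with 6.12% to 42.2% in TI and 0.896% to 40.1% in TIM. Cilium and Hedgehog kinesins held 0.885% to 0.908% in AG and 6.90% to 7.46% in AGM. The summed kinesin level was 35.7 ± 1.05 FPKM (SD, n = 3) in AG and 28.8 ± 1.04 (SD, n = 5) in AGM, with 93.3 ± 22.5 (SD, n = 8) in TI and 68.9 ± 14.7 (SD, n = 8) in TIM.

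**Figure D4:**
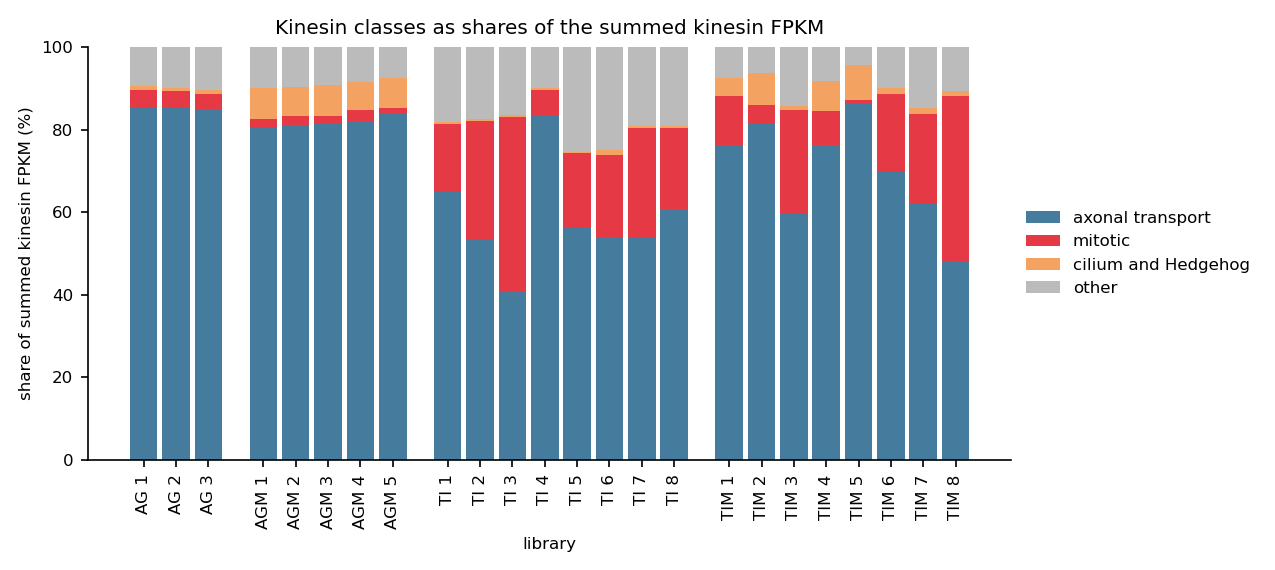
Share of each kinesin class in the summed kinesin FPKM, in percent, with 1 stacked bar for each of the 24 libraries. The bars of the glands are alike within a group, and those of the tumors vary, from a mitotic share of 0.896% in TIM library 5 to 42.2% in TI library 3. The axonal transport class includes the widely used Kif1c and Kif5b, so that its share does not follow the neuronal motors.

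The mitotic and the neuronal transport motors were also set side by side in each tumor. The FPKM summed over Kif1a, Kif5a and Kif5c was 2.08 to 2.75 in AG and 4.52 to 5.87 in AGM, with 18.3 to 48.1 in TI and 8.98 to 45.5 in TIM. TIM library 5, with the lowest mitotic sum of its group, had the highest transport sum of TIM (45.5 FPKM), and the next lowest by mitotic sum, TIM library 2, TI library 4 and TIM library 4, had 36.6, 42.3 and 37.1. TIM library 8 was the reverse, with a transport sum of 8.98 and a mitotic sum of 15.1. TI library 3 had the highest mitotic sum of all libraries, 38.9, and a transport sum of 21.8. High and low values of both went together as well, since TI library 5 had the highest transport sum of all libraries (48.1) with a mitotic sum of 24.4, and TI library 6 the lowest transport sum of TI (18.3) with a mitotic sum of 11.4.

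**Figure D5:**
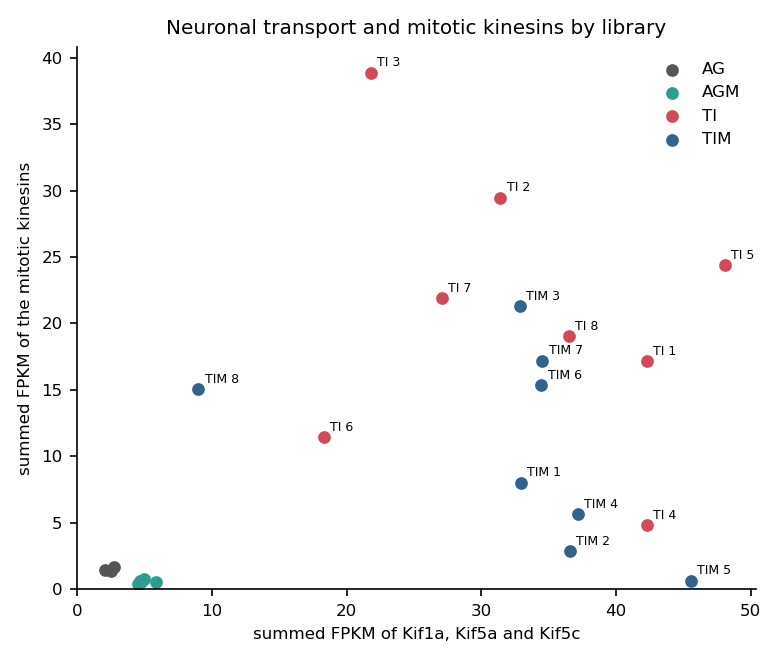
Summed FPKM of the mitotic kinesins against the summed FPKM of Kif1a, Kif5a and Kif5c, with 1 point for each library and tumors numbered in column order. The 8 glands lie near the origin, TIM 5 and TI 4 at high transport and low mitotic values, and TIM 8 at a low transport value.

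Genes that work with these motors, from lists of their partners, were read beside them. Of 13 partners of mitotic motors and proliferation markers, 11 passed the filter of 1 FPKM, 10 of them through the tumors alone with less than 1 FPKM in every gland, so that their calls against glands are no support beyond the levels. The 13 each had 10 or more reads in the 3 AG libraries. With the read filter 13 were called higher in TI vs AG, 7 in TIM vs AG and 13 in TIM vs AGM, beside 19.9%, 17.9% and 25.9% of all genes called higher. Of the 11, 6 were called lower in TIM vs TI, beside 12.9% of all genes. Mki67 rose 14.9-fold in mean FPKM in TI (FDR 2.22e-05), and Top2a, which untangles chromosomes, 26.7-fold (FDR 0.000493). Racgap1, which forms centralspindlin with Kif23, rose by 1.87 in TI (FDR 9.91e-05) and by 1.18 in TIM (FDR 0.00699). Kifc1 and Kifc5b, mitotic motors outside the naming rule, were both called higher in both kinds of tumor. Both were below 1 FPKM in every gland and passed the filter of 1 FPKM through the tumors. Their calls against glands are thus no support beyond the levels. Kifc1, the motor that gathers spindle poles, rose by 2.77 in TI (FDR 1.93e-05) and by 1.62 in TIM (FDR 0.00442), with a lower level in TIM than TI (by 1.14, FDR 0.0170). Kifc5b is a near-identical copy of Kifc1, so that reads of the pair may have been split between them. Cenpe, which carries chromosomes to the spindle equator, stayed below the filter at 0.0612 to 0.0871 FPKM in AG against 0.257 to 1.25 in TI and 0.0128 to 0.810 in TIM. Kifc3, a motor that walks to microtubule minus ends in epithelia, had 7.11 to 7.50 FPKM in AG and fell by 2.29 in TI (FDR 1.04e-13) and by 2.09 in TIM (FDR 5.57e-13).

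Of 19 cargo adaptors and light chains of kinesins, 18 were tested, and 8 were higher and 4 lower in TI vs AG, and 8 and 3 in TIM vs AG. The shares of all genes were 24.6% higher and 27.7% lower in TI vs AG, and 22.5% and 28.5% in TIM vs AG. Klc1, the kinesin-1 light chain of neurons, rose by 2.51 in TI (FDR 1.76e-07) and 2.12 in TIM (FDR 2.21e-06), from 3.61 ± 0.400 FPKM (SD, n = 3) to 27.0 ± 9.08 and 19.8 ± 6.30 (SD, n = 8 each). Fez1, an adaptor of kinesin-1, rose by 2.02 (FDR 5.34e-11) and 2.41 (FDR 2.28e-12), and Kifap3, the cargo subunit of kinesin-2, by 1.09 in TI (FDR 1.40e-06). Among 13 genes of the neuronal microtubule array, 12 were higher in TI and in TIM against AG, beside 24.6% and 22.5% of all genes, and 6 of the 13 were below 1 FPKM in every gland. Tubb3, the neuronal beta-tubulin, had 0.765 ± 0.138 FPKM (SD, n = 3) in AG, against 88.2 ± 37.7 in TI and 97.9 ± 20.7 in TIM (SD, n = 8 each). Of 15 genes of dynein, the motor that runs back to the cell body, and its partner dynactin, 7 were higher and 1 lower in TI vs AG, and 5 higher and 1 lower in TIM vs AG, beside the same shares of all genes (24.6% and 27.7%, then 22.5% and 28.5%). The dynein heavy chain Dync1h1 rose by 0.90 (FDR 0.0223) in TI and differed by 0.29 (FDR 0.485) in TIM.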

How the data were processed

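RNA of 24 mouse samples was sequenced from poly(A)-enriched, strand-specific libraries. The authors trimmed reads with cutadapt 2.8, aligned them with HISAT2 2.1.0 to mm39, counted them with featureCounts 2.0.0 and SAMtools 1.10, corrected them for a batch effect with ComBat-seq and scaled them with edgeR 3.40 (TMM). The authors deposited FPKM of 21833 genes that code for protein, beside each gene's length and 9 columns of their own comparisons (fold changes and p-values), which were not used. ComBat-seq replaces counts, so values of a gene that differs between batches can move, and which labels defined the batch was not given in the sources used here. FPKM times length gave whole reads for 100.0% of values (tolerance 0.1 read).

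limma 3.58.1 in R 4.3.3 (lmFit, eBayes with trend) was run on log2(FPKM + 1), with 24 libraries in 1 fit and Benjamini-Hochberg adjustment over 10171 genes. A count test had no raw counts to use. Named genes were the members of the mitotic and transport classes, the most changed members of each comparison, the most abundant members of each group, and up to 3 genes of each partner list. The code was tested on simulated data. Alternatives were the pseudocount, the filter, the scaling, limma-voom on recovered reads, fits of 2 groups and leaving out each library. Members and lists were chosen with earlier results of these data known. Intervals are 95%, and read numbers cover counting error only. Chromosome windows come from the RefSeq promoter table on GRCm38.p6.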

Additional observations from a re-analysis of the deposited data

Results flagged for a closer look

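Of 66 sets of AGM, TI or TIM values of the 22 kinesins tested, 6 held a library far from the others by Dixon's test, and chance gives about 1 in 20 such sets. Kif1c was 2.04 FPKM in TI library 4, whereas the other TI libraries had 0.544 to 1.09. The endothelial markers summed to 19.8 FPKM in that library and to 2.01 to 5.76 in the other TI libraries, and their part in it was not tested. Kif26a was 27.7 FPKM in TI library 5, against 3.98 to 12.8 in the rest of TI. Kif13a was 0.172 FPKM in TIM library 8, against 0.601 to 0.925 in the rest of TIM, and this library also had the lowest summed level of Kif1a, Kif5a and Kif5c among the tumors. Among the AGM glands, Kif17 was 1.58 FPKM in library 3 (1.22 to 1.31 in the others), Kif22 was 0.160 FPKM in library 4 (0.0889 to 0.0933) and Kif5c was 0.219 FPKM in library 5 (0.428 to 0.513).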

How the results depend on the processing

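No kinesin called in a comparison changed direction under any alternative. Over 110 results (22 kinesins in 5 comparisons), 94 kept their side of the threshold by limma-voom, 13 lost a call and 3 gained one, and 90, 7 and 13 did so in fits of 2 groups alone. With a pseudocount of 0.1, 7 gained a call, and with the recomputed scaling 4 gained and 1 lost one. The calls that held with no filter, a filter on the mean, the pseudocount, the scaling, limma-voom and fits of 2 groups, wherever the gene was tested, were 15 of 18 in TI vs AG, 10 of 16 in TIM vs AG, 5 of 5 in AGM vs AG, 14 of 18 in TIM vs AGM and 3 of 7 in TIM vs TI.

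The count of mitotic kinesins called in TI vs AG (6) was 3 by limma-voom, 11 with no filter, 11 with the read filter and 11 with the read filter and a pseudocount of 0.1, where more genes were tested. In TIM vs AG (4) it was 0 by limma-voom with either filter, 2 in the fit of 2 groups, 8 with the read filter and a pseudocount of 0.1, and 2 to 6 when 1 library was left out. In AGM vs AG (0) it was 5 in the fit of 2 groups. In TIM vs TI (3) it was 0 in the fit of 2 groups and 1 to 5 when 1 library was left out. In TIM vs AGM (6) it was 2 by limma-voom, 10 with no filter, and 11 with the read filter with either pseudocount. The count of axonal transport kinesins was 8 in AGM vs AG (4) and 1 in TIM vs TI (2) in fits of 2 groups, and 1 to 3 in TIM vs TI when 1 library was left out. Where the tests lost calls at unchanged numbers of genes and samples, the cause was not tested. The read filter and its combinations were chosen after seeing the data. No paired analysis was possible because the columns carry no replicate number of the labels. At 74.7 to 134 reads for 1 FPKM per 1000 bases, kinesins below about 10 reads could not be compared.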

Other observations

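Like Kif17, Dync1i1, the neuronal intermediate chain of dynein, had higher means in AGM and TIM than in AG and TI. The likeness was partial, since the Kif17 ranges of TI and TIM overlapped. Dync1i1 had 1 read in each AG library and at most 2 reads in any TI library. Its levels were 5.60 to 17.0 FPKM in AGM and 4.63 to 73.3 FPKM in TIM. limma called it higher in AGM vs AG (3.78, FDR 8.73e-05), in TIM vs AG (4.35, FDR 1.51e-06) and in TIM vs TI (4.35, FDR 8.58e-07). Dync1i1 passed the filter through AGM and TIM alone, so that these calls are no support beyond the levels. AGM and TIM share the MYCN transgene and also run 2, and AG was in run 1 alone. TI had 6 samples in run 1, 1 in run 2 and 1 in run 3. Transgene, run and batch correction cannot be told apart here, and none was tested as a cause. The gene was chosen after its values were seen.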
